A study of Homo sapiens with 9 samples.

Results

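Transcripts of metallothioneins, of a zinc exporter, of a zinc importer and of their zinc-sensing regulator gave no difference between treatments that passed the test over all genes when the 9 libraries were used. The 7 genes described are the metallothioneins MT2A, MT1E, MT1F and MT1X, the zinc exporter SLC30A1, the zinc importer SLC39A10 and the transcription factor MTF1. They were taken by symbol from the 61093 genes of the expression table, and all 7 were found. All 7 were also among the 17492 genes tested, for which 3 or more of the 9 libraries had a normalized count of 10 or above.

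The study sequenced RNA from cells labelled HepG2, a human hepatocellular line, and compared an agonist and an inhibitor of the cation channel TRPV2 with control cells. The groups were 3 libraries labelled 2-APB (2-aminoethoxydiphenyl borate, named in the study's design text as the agonist), 3 labelled SKF-96365 (named there as the inhibitor) and 3 control libraries whose treatment label reads NULL. The 2-APB libraries are titled ABP and described as TRPV2, also in the column headers, and were placed by their treatment label. All groups share the cell line, and no genetic change, dose, exposure time, vehicle or batch is given. The labels do not say whether the libraries of a group came from separate cultures, so the p-values measure only the spread between these libraries, which may be technical.

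Zinc in the cytosol is held at low free concentrations. Metallothioneins are small cysteine-rich proteins that bind zinc and copper, and in liver they take up zinc when the supply is high. MTF1 is a zinc-sensing transcription factor that binds metal response elements in the promoters of metallothionein genes and of SLC30A1. SLC30A1 moves zinc out across the plasma membrane, and SLC39A10 moves zinc into the cytosol; in mice, MTF1 represses the gene for SLC39A10.

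The 4 metallothionein genes lie on the plus strand of chromosome 16 and have 3 exons each. In GENCODE 29 on GRCh38 their coding sequences run from chr16:56608656 to 56609351 for MT2A, from chr16:56625852 to 56626968 for MT1E, from chr16:56658059 to 56659161 for MT1F and from chr16:56682541 to 56684046 for MT1X, introns included. The coding sequences without the stop codon are shown because they show how alike these transcripts are to a read, with the codons for cysteine, the residue that binds the metal, in capitals:
MT2A: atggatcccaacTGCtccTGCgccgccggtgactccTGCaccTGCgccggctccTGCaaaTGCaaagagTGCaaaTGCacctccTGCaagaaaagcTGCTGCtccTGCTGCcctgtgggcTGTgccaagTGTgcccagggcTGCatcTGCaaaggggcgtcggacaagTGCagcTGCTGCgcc
MT1E: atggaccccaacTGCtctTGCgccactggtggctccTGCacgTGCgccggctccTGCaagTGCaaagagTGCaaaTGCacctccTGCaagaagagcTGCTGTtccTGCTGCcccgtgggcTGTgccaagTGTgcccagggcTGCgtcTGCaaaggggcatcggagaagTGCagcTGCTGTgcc
MT1F: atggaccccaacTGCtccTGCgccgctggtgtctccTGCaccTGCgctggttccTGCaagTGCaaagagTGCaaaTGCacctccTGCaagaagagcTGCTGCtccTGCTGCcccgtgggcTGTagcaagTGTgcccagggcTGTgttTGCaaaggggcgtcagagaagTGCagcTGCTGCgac
MT1X: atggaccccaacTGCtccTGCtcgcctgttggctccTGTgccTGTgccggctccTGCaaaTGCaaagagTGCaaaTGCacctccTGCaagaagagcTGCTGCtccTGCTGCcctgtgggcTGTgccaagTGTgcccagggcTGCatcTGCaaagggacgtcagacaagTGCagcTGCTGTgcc
Each holds 183 bases and 61 codons, of which 20 encode cysteine. Identity between pairs ran from 88.5% for MT1F and MT1X to 92.3% for MT2A and MT1E and for MT2A and MT1X. The longest identical run was 63 bases, between MT2A and MT1X.

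Reads short enough to fall in such a run cannot be placed by sequence. At a length of 50 bases, 4.88% of the windows of the MT2A transcript occurred in another annotated gene, as did 5.34% of those of MT1E, 3.59% of those of MT1F and 45.1% of those of MT1X. At 100 bases the shares were 0% for MT2A, MT1E and MT1F and 19.1% for MT1X. The gene that shared most windows with MT1X was AC026461.1, a transcript on the same strand that overlaps it and was listed at 0 in every library. It held 117 of the 181 shared windows of 50 bases and all 67 of those of 100 bases. A window shared with it can be a single place in the genome annotated to both genes. The MT1X shares are therefore not all likeness to other metallothioneins. The read length and the treatment of shared reads are not given in the sources used here, so the MT1X values carry this uncertainty.

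The promoters were searched for the core of the metal response element, TGCACNC or TGCGCNC, on both strands in the 250 bases before each annotated start. RefSeq promoters on GRCh38.p14 were matched for 5 of the 7 genes (all but MT1E and MT1F). Those with a match to the core are shown, with the matches in capitals:
MT2A, chr16:56608334-56608583, plus strand: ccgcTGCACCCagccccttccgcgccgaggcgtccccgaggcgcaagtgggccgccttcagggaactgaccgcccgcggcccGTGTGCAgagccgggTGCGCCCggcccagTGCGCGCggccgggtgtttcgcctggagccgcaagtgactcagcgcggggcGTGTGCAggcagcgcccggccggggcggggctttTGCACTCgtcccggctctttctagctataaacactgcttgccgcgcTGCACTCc
MT1X, chr16:56682220-56682469, plus strand: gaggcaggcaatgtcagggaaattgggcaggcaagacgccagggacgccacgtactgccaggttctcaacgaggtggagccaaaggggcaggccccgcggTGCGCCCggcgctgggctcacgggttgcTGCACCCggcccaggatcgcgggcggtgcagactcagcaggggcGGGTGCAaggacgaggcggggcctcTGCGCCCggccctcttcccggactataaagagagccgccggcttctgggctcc
SLC30A1, chr1:211579162-211579411, minus strand: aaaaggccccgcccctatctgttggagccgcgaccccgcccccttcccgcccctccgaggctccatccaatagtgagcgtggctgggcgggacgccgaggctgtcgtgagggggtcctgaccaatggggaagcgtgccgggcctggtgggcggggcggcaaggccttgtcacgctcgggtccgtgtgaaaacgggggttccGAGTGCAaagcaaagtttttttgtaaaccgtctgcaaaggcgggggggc
MT2A held 7 matches, MT1X held 4 and SLC30A1 held 1, and none overlapped another. Among 35116 promoters of the same length, 24.8% held at least 1 match, 0.208% held at least 4 and 0.0228% held at least 7. Neither of the 2 promoters of SLC39A10 nor the promoter of MTF1 held these letters in this window. A match describes the sequence and does not show binding.

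The 8 libraries whose values could be turned back into whole reads held 14786059 to 19026545 reads. Of 12 hepatocyte markers, 11 had a mean normalized count under 10, with ALB between 0 and 11.8 and HNF4A between 0 and 2.58. SERPINA1 alone passed the filter, at 207 to 523 normalized counts. All 12 mesenchymal markers and 7 of 8 epithelial markers passed it, with sums of 3836 to 5160 CPM and 6613 to 8800 CPM over the libraries. The summed hepatocyte markers took 16.6 to 21.2 CPM (counts scaled to a common library total) in 2-APB libraries, 20.1 to 24.98 CPM in SKF-96365 libraries and 12.96 to 32.7 CPM in control libraries. The listed hepatocyte markers other than SERPINA1 were therefore at or near 0 in all groups. These low values are at odds with the HepG2 label of a hepatocellular line, and the identity of the cells was not tested. The values below are therefore those of cells labelled HepG2. In bulk RNA, fewer cells of a type and less RNA per cell cannot be told apart.

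Some libraries stood with another group over all tested genes. Control 3 correlated most closely with SKF-96365 2 (r = 0.988 over the log2 values), and its mean correlation was 0.982 with SKF-96365 libraries and 0.959 with the other control libraries. SKF-96365 1 and 2-APB 3 correlated most closely with each other (r = 0.988), although the mean correlation of 2-APB 3 was highest with its own group (0.980). Control 1 was closest to 2-APB 3 (r = 0.986), with a mean correlation of 0.982 with 2-APB libraries and 0.969 with the other control libraries. The results were therefore also computed with control 3 and SKF-96365 1 left out, and with 2-APB 3 left out as well. These libraries were picked for their likeness to a library of another group, so p-values without them are too small. Values without control 1 are among those with each library left out in turn.

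MT2A was the most abundant of the 7 genes per length. Its mean normalized count per kilobase of merged exons was 4901 over the 9 libraries, against 1218 for MT1E, 565 for SLC39A10, 148 for SLC30A1, 63.2 for MTF1, 38.1 for MT1X and 5.94 for MT1F. The ranges of neighbours in this order did not overlap except those of MTF1 (50.7 to 76.2) and MT1X (26.0 to 61.1). Per kilobase of the main annotated transcript the place of MT1X moved, since its level was then 150, close to the 148 of SLC30A1. MT1A, MT1B, MT1H, MT3 and MT4 were at 0 in every library, and MT1G and MT1M reached at most 1.97 and 1.01 normalized counts.

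**Figure D1:**
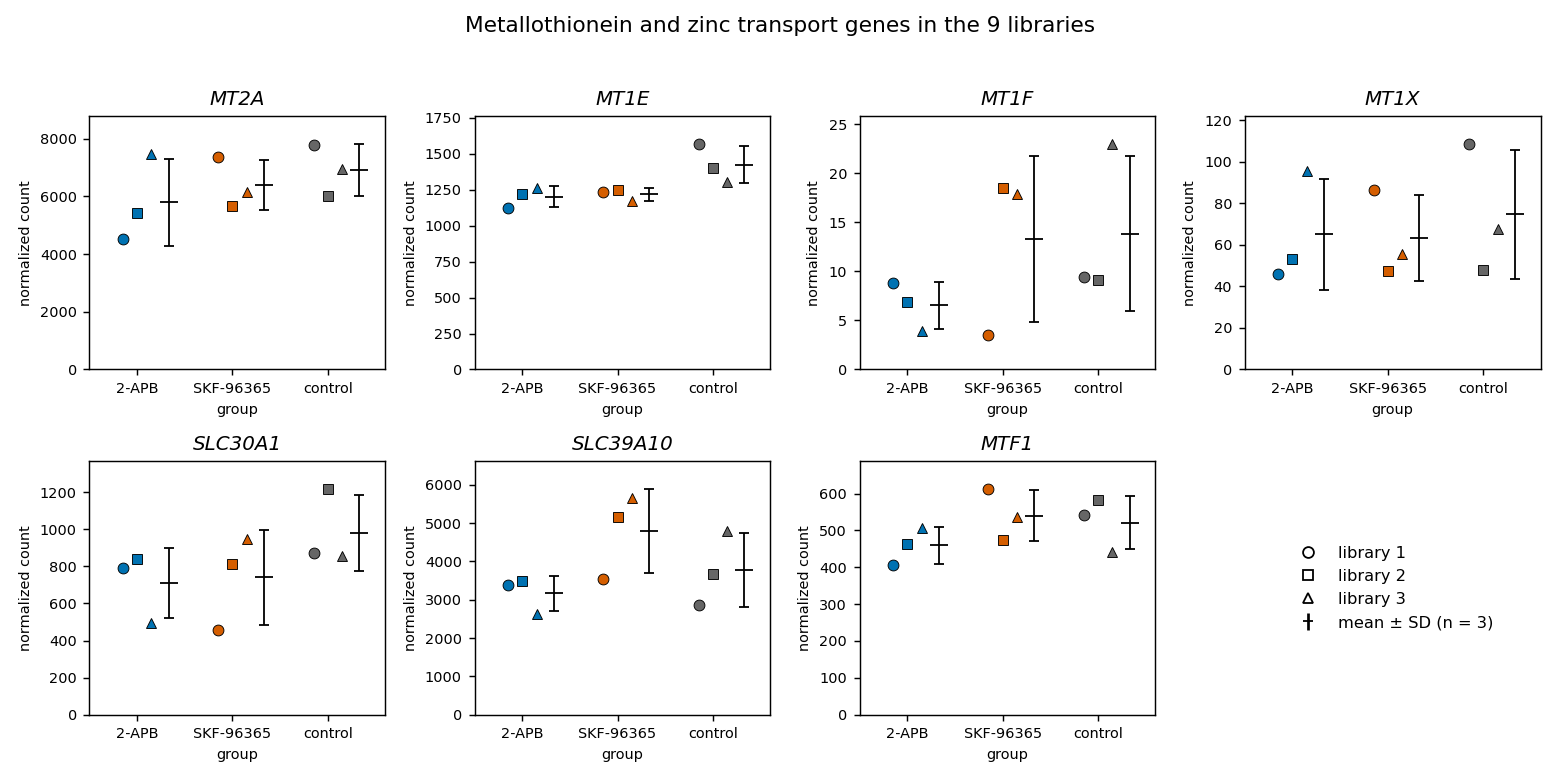
Normalized counts (y axes, from 0) of the 7 genes in each library of the 2-APB, SKF-96365 and control groups (x axes), with symbols for libraries 1 to 3 and bars for the mean ± SD (n = 3). The groups overlap for MT2A, MT1X and MTF1, while MT1E lies between 1123 and 1262 in 2-APB libraries and between 1306 and 1566 in control libraries.

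MT2A, the main human metallothionein of most tissues, had normalized counts of 4511, 5411 and 7462 in 2-APB libraries 1 to 3, 7360, 5679 and 6142 in SKF-96365 libraries 1 to 3, and 7782, 6002 and 6946 in control libraries 1 to 3. The lowest values were in 2-APB 1 and 2-APB 2, but 2-APB 3 stood above control 2 and control 3, and the groups overlapped. The log2 fold change was -0.28 (SE 0.19, limma with Benjamini-Hochberg adjusted p = 0.9995) in 2-APB against control and -0.11 (SE 0.19, adjusted p = 0.863) in SKF-96365 against control. With single libraries left out, 2-APB against control ran from -0.48 (2-APB 3 left out) to -0.11 (2-APB 1 left out), and SKF-96365 against control ran from -0.22 (SKF-96365 1 left out) to -0.02 (control 1 left out). The spread within the 2-APB group (mean 5795 ± 1513, SD, n = 3) was wider than its distance from the control mean (6910 ± 890, SD, n = 3).

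MT1E, a metal-inducible isoform of the MT1 group, gave the tightest values of the 4 metallothioneins. It had 1123, 1222 and 1262 normalized counts in 2-APB libraries, 1236, 1246 and 1169 in SKF-96365 libraries and 1566, 1403 and 1306 in control libraries. All 6 libraries of the treated groups stood below all 3 control libraries, although 2-APB 3 and control 3 lay close together. For 2-APB against control the log2 fold change was -0.24 (SE 0.11, 95% interval -0.49 to 0.00, unadjusted p = 0.0515, adjusted p = 0.9995, limma with Benjamini-Hochberg). In SKF-96365 against control it was -0.22 (SE 0.11, 95% interval -0.47 to 0.02, unadjusted p = 0.0685, adjusted p = 0.789, same test). Both comparisons use the same control libraries, so they are not independent of each other. Without control 3, SKF-96365 1 and 2-APB 3 the log2 fold changes were -0.34 (limma adjusted p = 0.04999, with 5.79% of all genes called lower) in 2-APB against control and -0.30 (limma adjusted p = 0.0314, with 19.8% of all genes called lower) in SKF-96365 against control.

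MT1X, another isoform of the MT1 group, had 46.0, 53.2 and 95.6 normalized counts in 2-APB libraries, 86.5, 47.3 and 55.6 in SKF-96365 libraries and 108, 47.7 and 67.8 in control libraries. The groups overlapped fully, and the 4 highest libraries (control 1, 2-APB 3, SKF-96365 1 and control 3) were the same as for MT2A and stood in the same order. Its log2 fold change was -0.19 (SE 0.38) in 2-APB against control and -0.21 (SE 0.38) in SKF-96365 against control, with adjusted p = 0.9995 and 0.876 by limma with Benjamini-Hochberg. Without control 1 both turned positive, to 0.12 and 0.10.

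MT1F was close to the detection limit. It had 8.77, 6.87 and 3.94 normalized counts in 2-APB libraries, 3.49, 18.5 and 17.9 in SKF-96365 libraries and 9.47, 9.13 and 23.0 in control libraries, which came from 4 to 22 reads in the 8 libraries with recovered reads. Only SKF-96365 2, SKF-96365 3 and control 3 reached 10, and MT1F was tested through them. The 2-APB values stood below the control values with a gap of less than 1 normalized count, and the log2 fold change was -0.91 (SE 0.63, 95% interval -2.31 to 0.48, limma adjusted p = 0.9995). In SKF-96365 against control it was -0.21 (SE 0.63, limma adjusted p = 0.929), and it was 0.90 without control 3 and SKF-96365 1.

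MT2A was the largest part of the metallothionein pool in every library. It took 79.3% to 84.7% of the normalized counts of the 4 genes, MT1E 14.2% to 19.7%, MT1X 0.639% to 1.15% and MT1F 0.0402% to 0.275%. The 95% Wilson intervals reached at most 1.10 percentage points to either side for MT2A and 0.125 for MT1F, in the libraries with recovered reads. These intervals cover counting error only and take each read as a separate molecule. Whether PCR copies were removed is not given in the sources used here, and copies left in would make the intervals too narrow. The MT2A intervals of single libraries did not all overlap, at 78.2% to 80.4% in 2-APB 1 and 84.0% to 85.4% in SKF-96365 1. The share of MT2A averaged 81.6% ± 2.71 in 2-APB libraries, 83.1% ± 1.75 in SKF-96365 libraries and 82.0% ± 1.43 in control libraries (SD, n = 3 each), so the group means differed by less than the spread of the 2-APB group. The 4 genes together took 351, 410 and 535 CPM in 2-APB libraries, 523, 412 and 427 in SKF-96365 libraries and 560, 437 and 500 in control libraries.

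MT2P1, a pseudogene of MT2A on chromosome 4, was the only metallothionein pseudogene that passed the filter. It had 137, 88.5 and 217 normalized counts in 2-APB libraries, 221, 152 and 135 in SKF-96365 libraries and 192, 128 and 171 in control libraries. Its level was 1.63% to 3.04% of that of MT2A, its highest 4 libraries were again control 1, 2-APB 3, SKF-96365 1 and control 3, and 15.7% of its windows of 50 bases, but 0% of those of 100 bases, occurred in another gene, mostly MT2A. The log2 fold change was -0.22 (SE 0.32) in 2-APB against control and 0.04 (SE 0.32) in SKF-96365 against control, with limma adjusted p = 0.9995 and 0.9746.

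**Figure D2:**
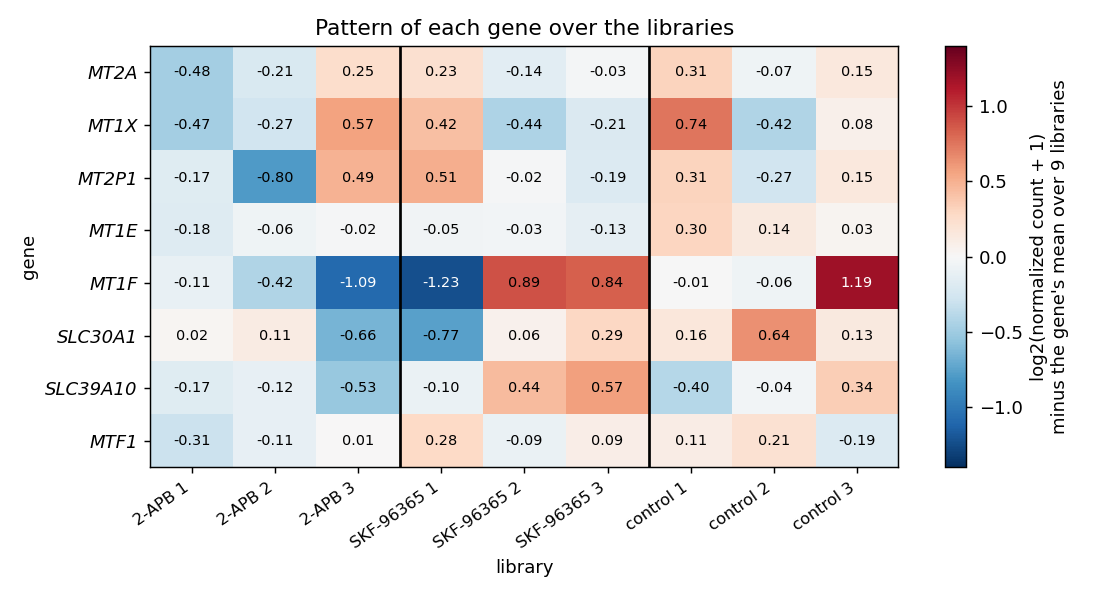
Log2(normalized count + 1) of each gene (rows) in each library (columns), minus the gene's mean over the 9 libraries, as a colour scale with the value printed in each cell. MT2A, MT1X and MT2P1 are all above their means in 2-APB 3, SKF-96365 1, control 1 and control 3, while SLC30A1 is at -0.66 in 2-APB 3 and -0.77 in SKF-96365 1.

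SLC30A1, the exporter of the plasma membrane, had 791, 842 and 494 normalized counts in 2-APB libraries, 458, 814 and 950 in SKF-96365 libraries and 870, 1215 and 855 in control libraries. The 2-APB libraries stood below the control libraries without overlap, by a narrow gap between 2-APB 2 and control 3, and SKF-96365 3 stood within the control range. The 2 lowest values were in SKF-96365 1 and 2-APB 3, the libraries that resembled each other over all genes. The log2 fold change was -0.49 (SE 0.29, 95% interval -1.12 to 0.15, limma adjusted p = 0.9995) in 2-APB against control and -0.45 (SE 0.29, 95% interval -1.09 to 0.19, limma adjusted p = 0.789) in SKF-96365 against control. Leaving out 2-APB 3 alone gave -0.24 in 2-APB against control, and leaving out SKF-96365 1 alone gave -0.14 in SKF-96365 against control. Without control 3, SKF-96365 1 and 2-APB 3 the log2 fold changes were -0.33 in 2-APB against control and -0.23 in SKF-96365 against control (limma adjusted p = 0.193 and 0.278).

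SLC39A10, the importer, gave the widest separation between the compounds among the 6 genes with a mean of at least 50 normalized counts. It had 3372, 3489 and 2629 normalized counts in 2-APB libraries, 3547, 5153 and 5646 in SKF-96365 libraries and 2863, 3680 and 4798 in control libraries. The 2-APB libraries stood below the SKF-96365 libraries without overlap, and the control libraries spanned both. In 2-APB against SKF-96365 the log2 fold change was -0.58 (SE 0.22, 95% interval -1.07 to -0.09, unadjusted p = 0.0250, adjusted p = 0.684, limma with Benjamini-Hochberg), a fold of 0.669. In 2-APB against control it was -0.24 (SE 0.22, limma adjusted p = 0.9995), and in SKF-96365 against control it was 0.34 (SE 0.22, limma adjusted p = 0.789). Leaving out single libraries moved these to between -0.42 (without control 1) and -0.048 (without control 3) in 2-APB against control, and to between 0.16 (without control 1) and 0.54 (without SKF-96365 1) in SKF-96365 against control.

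The 3 highest libraries for SLC39A10 were SKF-96365 3, SKF-96365 2 and control 3. They were also the 3 highest for SLC39A6, SLC39A7, SLC39A11, SLC30A4 and SLC30A9, so this is not particular to SLC39A10. The same 3 libraries had 3595 to 3811 normalized counts of the tubulin gene TUBA1B, against 9375 to 14648 in the other 6, and the part of this split in the SLC39A10 values was not tested. Without control 3 and SKF-96365 1, SLC39A10 gave a log2 fold change of 0.73 (limma adjusted p = 0.0105) in SKF-96365 against control and of -0.78 (limma adjusted p = 0.0122) in 2-APB against SKF-96365. In that fit 13.1% of all genes were called higher in SKF-96365 against control and 6.61% were called lower in 2-APB against SKF-96365. With 2-APB 3 left out as well, the values were 0.73 (limma adjusted p = 0.00161, with 17.8% of all genes called higher) and -0.65 (limma adjusted p = 0.00858, with 7.68% called lower).

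**Figure D3:**
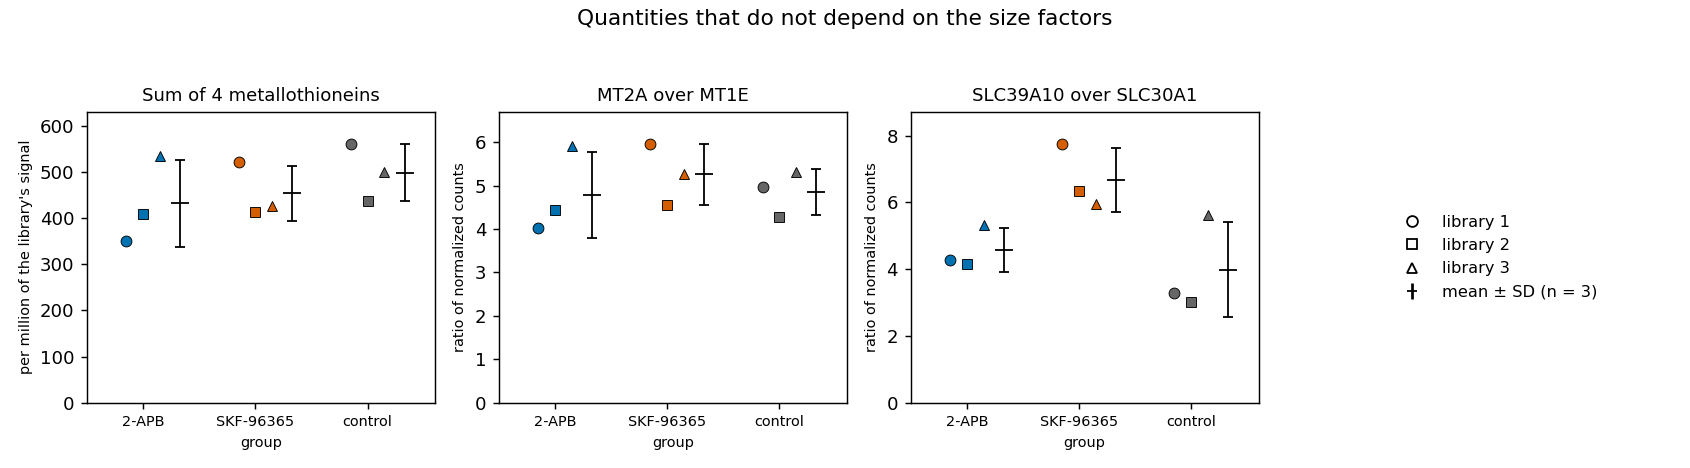
The sum of the 4 metallothioneins in CPM, the ratio of MT2A to MT1E and the ratio of SLC39A10 to SLC30A1 (y axes, from 0) in each library of the 2-APB, SKF-96365 and control groups (x axes), with bars for the mean ± SD (n = 3). The last ratio is between 5.94 and 7.75 in SKF-96365 libraries, above the 4.15 to 5.32 of 2-APB libraries and the 3.03 to 5.61 of control libraries.

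The ratio of the importer to the exporter does not depend on how libraries were scaled. SLC39A10 over SLC30A1 was 4.26, 4.15 and 5.32 in 2-APB libraries, 7.75, 6.33 and 5.94 in SKF-96365 libraries and 3.29, 3.03 and 5.61 in control libraries. The SKF-96365 libraries stood above the other 6 without overlap, by a narrow gap over control 3. This ratio was chosen after the values were known and is given without a test. The metallothionein sum over SLC30A1 was 17.9 in 2-APB 3 and 19.0 in SKF-96365 1 and lay between 6.14 and 10.9 in the other 7 libraries.

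MTF1, the zinc sensor, had 407, 465 and 507 normalized counts in 2-APB libraries, 611, 473 and 536 in SKF-96365 libraries and 542, 582 and 440 in control libraries. The 3 groups overlapped. The log2 fold change was -0.18 (SE 0.16, limma adjusted p = 0.9995) in 2-APB against control and 0.05 (SE 0.16, limma adjusted p = 0.926) in SKF-96365 against control, and it was -0.16 in the second comparison without control 3 and SKF-96365 1.

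**Figure D4:**
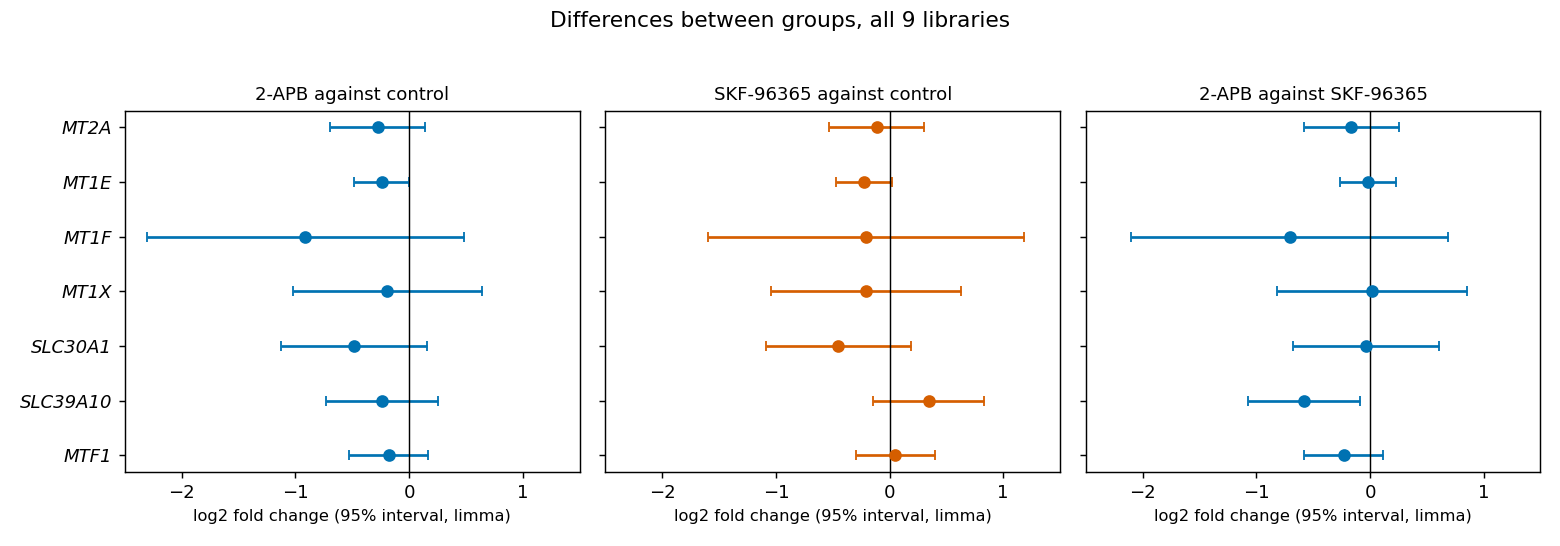
Log2 fold changes of the 7 genes (points) with 95% intervals from limma (bars) in 2-APB against control, SKF-96365 against control and 2-APB against SKF-96365. The interval of SLC39A10 in 2-APB against SKF-96365, -1.07 to -0.09, is the only 1 of the 21 that lies wholly to one side of 0, before adjustment for the genes tested.

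Read as a group in 2-APB against control, 0 of the 7 genes passed limma with Benjamini-Hochberg adjustment, as did 0% of all genes tested. All 7 log2 fold changes were below 0, with a median of -0.24, while 50.3% of all genes were below 0. Without overlap between groups, 3 of 7 were lower (MT1E, MT1F and SLC30A1), and 3.97% of all genes were lower in this way. MT1F reached 10 in no 2-APB library and was tested only through libraries of the other groups. It therefore adds nothing to this count or to the count of log2 fold changes below 0. The 7 genes were chosen with earlier results of these data known, and they share the same libraries. Their counts beside the shares of all genes, here and in the other comparisons, are therefore a description and not a test. At an unadjusted p under 0.05, 0 of the 7 genes and 1.43% of all genes were lower, and 489 of all genes differed in either direction. Fits with edgeR and DESeq2 on the recovered reads of 8 libraries, without SKF-96365 3, also called 0 of the 7 genes in each of the 3 comparisons.

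In SKF-96365 against control, 0 of 7 passed limma with adjustment, as did 0% of all genes, and 5 of 7 log2 fold changes were below 0, with a median of -0.21, against 50.5% of all genes. MT1E alone was lower without overlap, as were 2.94% of all genes. At an unadjusted p under 0.05, 0 of the 7 genes and 1.94% of all genes were lower, and 699 of all genes differed in either direction.

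Set side by side, 2-APB and SKF-96365 gave log2 differences of -0.16 (95% interval -0.58 to 0.25, and -0.00021 without 2-APB 1) for MT2A, -0.02 (-0.26 to 0.23) for MT1E and 0.02 (-0.82 to 0.85) for MT1X. They were -0.04 (-0.67 to 0.60) for SLC30A1, -0.23 (-0.58 to 0.12) for MTF1 and -0.71 (-2.10 to 0.69) for MT1F. With SLC39A10, 0 of 7 passed limma with adjustment (0% of all genes), and 6 of 7 log2 fold changes were below 0, as were 49.0% of all genes. MT1F is among these 6, but it was tested through no 2-APB library, so it adds nothing to this count. SLC39A10 alone of the 7 was lower at an unadjusted p under 0.05, as were 4.09% of all genes (1277 differed in either direction). It was also the only 1 of the 7 lower without overlap, as were 8.79% of all genes. Doses and times are not given, so a match between the treatments cannot be checked.

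**Figure D5:**
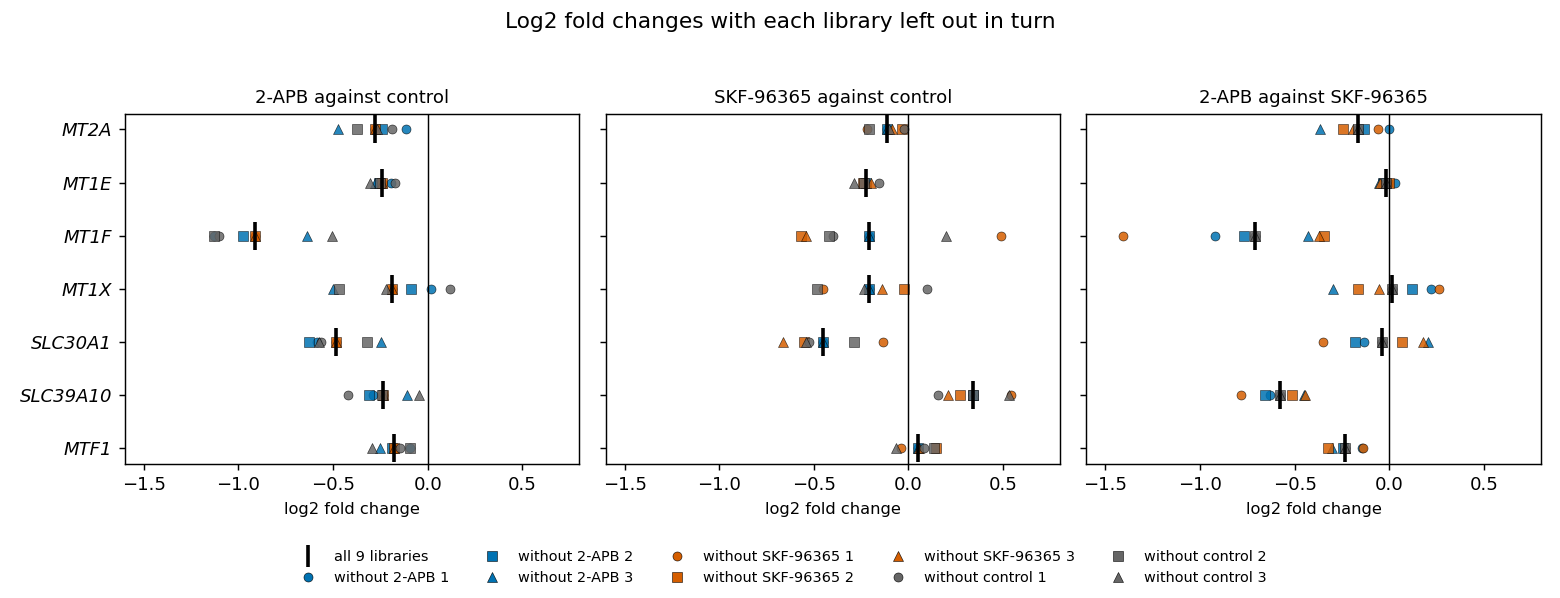
Log2 fold changes of the 7 genes with all 9 libraries (black bars) and with each library left out in turn (symbols by group and library), for the 3 comparisons. MT2A, MT1E and SLC30A1 stay below 0 in both comparisons with control, whichever single library is left out, while MT1X crosses 0 in all 3 comparisons.

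The other zinc transporters were read from lists of all SLC30 and SLC39 genes. Of 10 SLC30 genes, a family most of whose members move zinc out of the cytosol, 7 were tested, and 0 were called by limma in any comparison. Their median log2 fold change was -0.07 in 2-APB against control, 0.09 in SKF-96365 against control and -0.11 in 2-APB against SKF-96365, against -0.0016, -0.0043 and 0.0073 for all genes. At an unadjusted p under 0.05 the counts of these genes were 0 in each comparison. SLC30A7 and SLC30A5, which load zinc into the secretory pathway, had the highest normalized counts.

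SLC30A5 was the steadiest of these, at 1077 ± 12.9 normalized counts in 2-APB libraries, 1135 ± 12.4 in SKF-96365 libraries and 1067 ± 26.5 in control libraries (SD, n = 3 each). SKF-96365 libraries stood above both other groups without overlap, with a log2 fold change of 0.09 (SE 0.09, limma adjusted p = 0.805) over control. Without overlap, 1 of the 7 SLC30 genes and 571 of all 17492 genes were higher in SKF-96365 against control. In 2-APB against SKF-96365, 2 of the 7 and 1537 of all 17492 were lower in this way. SLC30A7 had 1448 ± 57.0 in 2-APB libraries, 1566 ± 55.8 in SKF-96365 libraries and 1516 ± 47.5 in control libraries (SD, n = 3 each), with overlap against control.

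SLC30A3, a zinc transporter best known from synaptic vesicles, gave the largest positive values of the SLC30 genes. It had 81.1, 96.2 and 94.7 normalized counts in 2-APB libraries, 79.5, 112 and 123 in SKF-96365 libraries and 75.8, 19.3 and 97.1 in control libraries. Control 2 stood apart from the other 8 libraries. The log2 fold change was 0.77 (SE 0.49, limma adjusted p = 0.9995) in 2-APB against control and 0.96 (SE 0.49, limma adjusted p = 0.789) in SKF-96365 against control. Without control 2, a fit chosen after the values were seen, the values were 0.075 in 2-APB against control and 0.26 in SKF-96365 against control.

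SLC30A4, an exporter into vesicles, was lowest in the same 2 libraries as SLC30A1, with 315 normalized counts in 2-APB 3 and 338 in SKF-96365 1, against 403 to 677 in the other 7. It was highest in SKF-96365 2 (677), SKF-96365 3 (650) and control 3 (582), the libraries with low TUBA1B. Its log2 fold change was -0.28 (SE 0.29, limma adjusted p = 0.789) in 2-APB against SKF-96365.

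Of 14 SLC39 genes, which move zinc into the cytosol, 12 were tested, and 0 were called by limma in any comparison. Their median log2 fold change was -0.14 in 2-APB against control, -0.01 in SKF-96365 against control and -0.09 in 2-APB against SKF-96365. At an unadjusted p under 0.05 there were 2, 1 and 2 of the 12 genes in these comparisons, against 489, 699 and 1277 of all 17492 genes, and SLC39A5, which passed the filter through the treated libraries alone, was among them in both comparisons with control. After SLC39A10, SLC39A14, an importer of zinc, iron and manganese in liver, had the highest normalized counts, at 2917 ± 99.5 in 2-APB libraries, 3121 ± 107 in SKF-96365 libraries and 3232 ± 214 in control libraries (SD, n = 3 each).

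SLC39A9, an importer of the secretory pathway and plasma membrane, had 953, 988 and 996 normalized counts in 2-APB libraries, 1092, 1139 and 1229 in SKF-96365 libraries and 1166, 1312 and 1051 in control libraries. The 2-APB libraries stood below both other groups without overlap. In 2-APB against control the log2 fold change was -0.26 (SE 0.11, unadjusted p = 0.0470, limma adjusted p = 0.9995). Without overlap, 2 of the 12 SLC39 genes and 3.97% of all genes were lower in 2-APB against control. In 2-APB against SKF-96365, 4 of the 12 and 8.79% of all genes were lower in this way.

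SLC39A11 had 529, 542 and 587 normalized counts in 2-APB libraries, 623, 711 and 873 in SKF-96365 libraries and 539, 651 and 813 in control libraries. The compounds did not overlap, and the log2 fold change was -0.40 (SE 0.17, unadjusted p = 0.0432, limma adjusted p = 0.684) in 2-APB against SKF-96365. Without overlap, 8.79% of all genes were lower in this comparison. The highest libraries for SLC39A11 were SKF-96365 3, control 3 and SKF-96365 2, those with low TUBA1B, and the part of that split was not tested. SLC39A8, an importer of zinc and manganese, had a log2 fold change of -0.42 (SE 0.22, limma adjusted p = 0.789) in SKF-96365 against control, with overlapping groups.

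SLC39A5, known as an importer of the basolateral membrane, falls outside the rule for naming and was chosen after its values were seen. It had 12.1, 10.3 and 20.7 normalized counts in 2-APB libraries, 16.6, 10.3 and 17.9 in SKF-96365 libraries and 5.26, 5.07 and 7.30 in control libraries. It passed the filter through the 6 libraries of the treated groups alone, so it could only be tested because it was higher there. The log2 fold changes over control were 1.11 (SE 0.40, limma adjusted p = 0.9995) for 2-APB and 1.19 (SE 0.40, limma adjusted p = 0.789) for SKF-96365.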

How the data were processed

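Gene expression was measured by RNA sequencing of total RNA in 9 libraries. Per the submitters' processing notes, the authors used DESeq2; the deposited values are a normalized signal, gene counts divided by 1 size factor per library. The aligner, counter, genome build, annotation, strand setting and DESeq2 version are not given in the sources used here. Of 61093 rows, 488 named no gene by Ensembl identifier and held at most 0.275% of the signal.

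Genes were tested in R 4.3.3 with limma 3.58.1 (eBayes, trend on) on log2(normalized count + 1), so a fold change of a low gene is understated. It covered 17492 genes with at least 10 in at least 3 libraries, with 1 spread per gene over all 9 libraries, 2-sided contrasts and Benjamini-Hochberg adjusted p under 0.05. Values fell on whole multiples of 1 read, within 0.001, for 100% of genes in every library, so reads were recovered in 8 libraries (SKF-96365 3 was not certain), with 14786059 to 19026545 reads in each. Fits with edgeR 4.0.16 and DESeq2 1.42.0 on these reads were alternatives, beside other pseudocounts, filters, scalings, left-out libraries and a replicate block. The script was tested on simulated data.

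Coordinates and lengths came from GENCODE 29 (GRCh38) and promoters from RefSeq (GRCh38.p14). The genes and lists were chosen with earlier results of these data known. Genes outside the 7 were named by rule: tested metallothioneins and pseudogenes, the 2 genes of highest mean in each list, and the 2 SLC30 and SLC39 genes of largest log2 fold change with a mean of at least 50. A gene that this rule names is not reported here.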

Additional observations from a re-analysis of the deposited data

How the results depend on the processing

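Over 501 recomputed values of the 7 genes, 469 kept their direction and their side of the threshold, 26 turned direction and 6 passed the threshold. With all 9 libraries the calls over all genes were 0 in each comparison by limma. By edgeR on the 8 libraries with recovered reads, which lack SKF-96365 3, they were also 0. There, 367, 258 and 492 genes had an unadjusted p under 0.05 by edgeR in 2-APB against control, SKF-96365 against control and 2-APB against SKF-96365. DESeq2 on the same 8 libraries called 0, 2 and 1. With single libraries left out, calls ran from 0 to 0, from 0 to 173 (without control 3) and from 0 to 4 (without control 3), and with only the compared groups in the fit 4 were called in 2-APB against SKF-96365. Without control 3 and SKF-96365 1, 0, 4823 and 2283 were called. Without these and 2-APB 3, 1735, 6569 and 2575 were called. In these fits SLC39A10 passed in SKF-96365 against control (0.73 in both, adjusted p = 0.0105 and 0.00161) and in 2-APB against SKF-96365 (-0.78 and -0.65, adjusted p = 0.0122 and 0.00858), and MT1E passed in the second fit in 2-APB against control (-0.34) and SKF-96365 against control (-0.30). The cause was not tested.

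The following turned direction. In 2-APB against SKF-96365, scaling to equal totals gave 0.035 for MT1E and 0.018 for SLC30A1, and leaving out the 3 libraries gave -0.049 for MT1X. In the same comparison edgeR gave -0.049 for MT1X and 0.15 for SLC30A1, and DESeq2 gave -0.045 and 0.16. The edgeR and DESeq2 fits lacked SKF-96365 3, so the change of tool and the loss of this library cannot be told apart. In SKF-96365 against control, leaving out 2 or 3 libraries gave 0.90 for MT1F and -0.16 for MTF1. In 2-APB against control, leaving out 3 gave 0.080 for SLC39A10. With single libraries left out, log2 fold changes in SKF-96365 against control ran from -0.57 to 0.49 for MT1F, from -0.48 to 0.10 for MT1X and from -0.065 to 0.14 for MTF1. In 2-APB against control they ran from -0.50 to 0.12 for MT1X. In 2-APB against SKF-96365 they ran from -0.30 to 0.26 for MT1X, from -0.054 to 0.030 for MT1E and from -0.35 to 0.21 for SLC30A1. No scaling moved the median of all genes by more than 0.06.

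With the replicate number as a block, 0 genes were called in each comparison, and no call changed. Deviations from the group means correlated at -0.35 to 0.50 between libraries with the same number, and at -0.57 to 0.48 between libraries with different numbers. These values cannot tell whether the numbers pair libraries, which the labels do not say. The numbers are used here only to name libraries. MT1F is limited by depth, with 4 to 22 reads in the 8 libraries with recovered reads.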

Other observations

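Other metal-handling lists gave 0 calls by limma with Benjamini-Hochberg adjustment in any comparison. At an unadjusted p under 0.05 there were 3, 0 and 2 copper genes and 1, 0 and 2 iron genes in 2-APB against control, SKF-96365 against control and 2-APB against SKF-96365, out of 11 and 12 tested, against 489, 699 and 1277 of all 17492 genes. The copper gene SLC31A2, named outside the rule, had 7.67, 5.15 and 5.92 normalized counts in 2-APB libraries and 17.9, 11.2 and 11.5 in control libraries. It reached 10 in no 2-APB library and was tested only through libraries of the other groups. It therefore adds nothing to a count of copper genes in the comparisons with 2-APB. Among copper genes, SOD1, the cytosolic superoxide dismutase, averaged 2871 ± 125 normalized counts in 2-APB libraries, 2597 ± 249 in SKF-96365 libraries and 2595 ± 275 in control libraries (SD, n = 3 each), and SCO1, a copper chaperone of cytochrome oxidase, averaged 1427 ± 171 in 2-APB, 1198 ± 217 in SKF-96365 and 1309 ± 283 in control libraries. Of 11 copper genes tested, 4 had a log2 fold change below 0 in 2-APB against control and 7 in SKF-96365 against control. The 11 include MTF2, a chromatin factor rather than a copper transporter or chaperone, so the counts for copper genes are not of copper handling alone. Among iron genes, the ferritin light chain FTL averaged 37169 ± 1162 in 2-APB libraries, 38655 ± 699 in SKF-96365 libraries and 34478 ± 5628 in control libraries, and the heavy chain FTH1 averaged 7297 ± 879 in 2-APB, 9125 ± 2976 in SKF-96365 and 9250 ± 2097 in control libraries. Of 12 iron genes tested, 7 were below 0 in 2-APB against control and 5 in SKF-96365 against control.

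Glucocorticoids also induce metallothioneins, and 9 of 10 listed glucocorticoid-responsive genes were tested. All 9 had log2 fold changes above 0 in SKF-96365 against control, with a median of 0.50 and a lowest value of 0.012 (8652 of all 17492 genes were above 0), and 3 of 9 were above 0 in 2-APB against control, with a median of -0.13. Most of these genes shared a pattern over the libraries. SGK1 was highest in SKF-96365 2, SKF-96365 3 and control 3. So were PER1, KLF9, DUSP1, CEBPD, TSC22D3 and NR3C1, which are named outside the rule. FKBP5 and ERRFI1 did not have this pattern. FKBP5, named outside the rule, averaged 284 normalized counts in SKF-96365 libraries and 293 in control libraries. It was highest in 2-APB 3 (527), control 1 (437) and SKF-96365 1 (357). SGK1, a kinase, had 7727 and 8240 normalized counts in SKF-96365 2 and SKF-96365 3 and 7680 in control 3, against 1991 to 3899 in the other 6 libraries. These 3 libraries are those with low TUBA1B, and the part of that split in these values was not tested. SGK1 had log2 fold changes of 0.82 (SE 0.43, limma adjusted p = 0.789) in SKF-96365 against control and -1.43 (SE 0.43, limma adjusted p = 0.684) in 2-APB against SKF-96365. ERRFI1, an inhibitor of the EGF receptor, had log2 fold changes of 0.80 and -0.87 (SE 0.31 each) in these comparisons. Stress genes of highest level, TXNRD1 and SQSTM1, had log2 fold changes of 0.00 and -0.11 in 2-APB against control and 0.03 and 0.23 in SKF-96365 against control. NUP93, a nucleoporin gene near the metallothionein genes on chromosome 16, had log2 fold changes of -0.09 in 2-APB against control and -0.16 in SKF-96365 against control.

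The genes whose log2 values followed the members most closely over the 9 libraries are given as a description. All points share the same libraries, and the highest of 12245 correlations is high in any such ranking. For MT2A they were ZBTB7A (Pearson r = 0.979), PANK4 (0.966), DDR2 (0.944), BICD2 (0.936) and CFAP20DC (0.929). For SLC30A1 they were the unnamed gene ENSG00000280383 (0.976), CHST7 (0.964), ATP6V1A (0.964), HACD2 (0.964) and CYP51A1 (0.963). For SLC39A10 they were MOSPD2 (0.997), EPG5 (0.991), CAMK2D (0.990), ACBD3 (0.988) and XPR1 (0.983), and for MTF1 they were MTFR1 (0.972), TATDN2 (0.963), LINC02535 (0.935), SLC25A30 (0.934) and RAB18 (0.930).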
